A study of Arabidopsis thaliana with 20 samples.

Results

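The comparison set the base of the Arabidopsis inflorescence stem against its top, within stems of one length and harvest. Of the 20 arrays in the series, 8 entered it, assigned to their sections by the labels: 4 arrays of the section 7-9 cm from the tip (the base) and 4 of the section 0-3 cm from the tip (the top). All plants were of the ecotype Ler, with no mutant, transgene or treatment in the labels. They were grown in short days and then moved to long days, and the 10 cm stems were cut 14 days after the change, with flowers, siliques, cauline leaves and side branches taken off. Each array was hybridised with 2 dyes, the section in one and a common reference in the other. The reference was RNA from the top 2 cm of 5 cm stems, so that it drops out when the mean log2 ratio of the top is subtracted from that of the base. The remaining arrays held the 3-5 cm and 5-7 cm sections of the same 10 cm stems and the 2-4 cm section of 5 cm stems cut at 12 days, 4 arrays each. They entered the model to estimate the spread and served for 2 further contrasts.

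A bolting stem grows from its tip. Cells leave the meristem, divide for a while, elongate and then stop growing, so that a section farther from the tip holds older tissue. Elongation needs the primary wall to be loosened by expansins and xyloglucan-modifying enzymes and new matrix polysaccharides to be made in the Golgi, whereas xylem and interfascicular fibres later lay down a thick secondary wall of cellulose, xylan and lignin.

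The values were the deposited log2 ratios of 28800 spots, of which 25720 had values on 3 or 4 arrays in each section and were tested. Between 25652 and 25735 spots were measured per array, and the number of arrays limits the precision. Gene names came from the platform annotation, which gave 8138 tested probes 1 locus each, 7871 loci in all, of which 1018 carried a symbol or name in the RefSeq gene table. The other loci were counted and not described. The annotation limits what can be said of a single gene: of 91 loci with several tested probes and at least 1 call, 61 had probes that all differed in the same direction, 10 had all probes called in the same direction, and 3 had probes called in opposite directions. Probes of close relatives may also share signal.

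The top arrays resembled each other less than the base arrays did. Pearson's r over probes lay between -0.21 and 0.55 for pairs of top arrays and between 0.65 and 0.82 for pairs of base arrays, and the top arrays paired by dye (r = 0.48 for replicates 1 and 2, with the section in Cy5, and r = 0.55 for replicates 3 and 4, with it in Cy3). The SD of the ratios over probes was 0.41 to 0.55 on the top arrays, which held tissue close to that of the reference, and 0.84 to 0.90 on the base arrays. Each section had 2 arrays of each dye orientation, and a dye term stood in the model. The labels of base replicates 2 and 4 and of 5-7 cm replicate 4 named different dyes in different fields. The source name was used, and the counts without these arrays stand among the limits. The array numbers of all top arrays come before those of all base arrays, so array order and section cannot be told apart. Whether the replicates are separate plants is not said in the labels, and the p-values then reflect array-to-array spread, which may be technical.

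At the base, 2941 probes were higher and 2659 lower than at the top (limma, Benjamini-Hochberg adjusted p under 0.05), which was 21.8% of the 25720 tested, 11.4% in the upward and 10.3% in the downward direction. Of these, 1308 (5.09%) were at least 2-fold higher and 1383 (5.38%) at least 2-fold lower, and 32.9% of probes had an unadjusted p under 0.05. Differences were balanced around 0, with a median of 0.01 on the log2 scale over all probes. The median ratio of each array compared was already near 0 as deposited (-0.033 to 0.029), so this balance is not a result about the tissue. On 4967 probes (19.3%) the 4 base values all lay beyond the 4 top values, above them on 10.2% and below them on 9.09%. Base replicates 3 and 4 were scanned at another photomultiplier setting than the top arrays. Within the shared setting 3244 probes were called, and 5609 with the setting as a block. Among the 1018 named loci, 141 were higher and 121 lower, 25.7% of them, against 21.5% of all 7871 loci (11.7% higher and 9.86% lower), the shares against which the counts in gene lists are read. After the arrays were centred and scaled to one spread, 1396 probes were higher and 1425 lower. In bulk tissue, fewer cells of a type and less RNA per cell cannot be told apart.

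**Figure D1:**
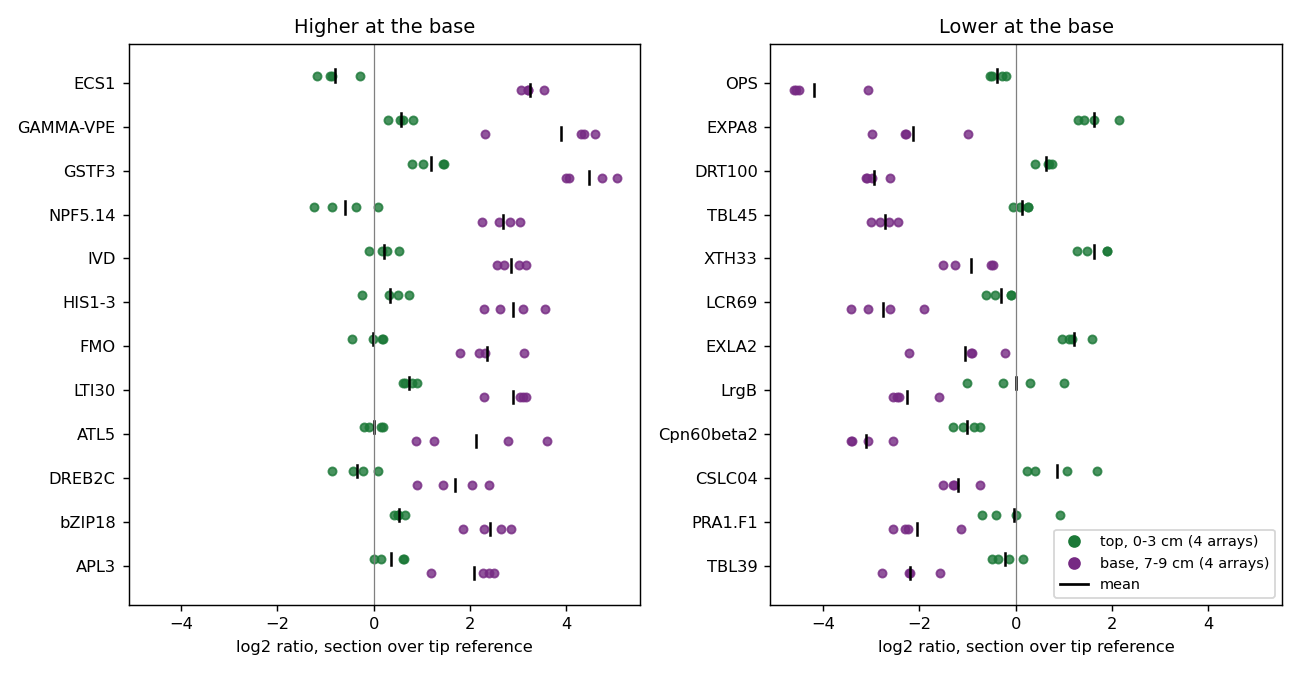
Log2 ratio of section over tip reference on each of 4 top arrays (green) and 4 base arrays (purple), with the mean as a bar, for the 12 named genes with the largest increase and the 12 with the largest decrease among those called and not overlapping between the sections. ECS1 shows the widest gap upward (4.06) and OPS the widest downward (-3.81), and for GAMMA-VPE and OPS base replicate 2 sits apart from the other base arrays.

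Most of the expansins measured, which loosen the growing wall, were lower at the base. Of 11 expansins and expansin-like genes tested, 7 were lower and none was higher, against 9.86% lower among all loci, and their median difference was -0.71. EXPA8 (AT2G40610), an alpha-expansin, had ratios of 2.15, 1.63, 1.3 and 1.42 at the top and of -2.28, -2.99, -2.3 and -1.0 at the base. All 4 top arrays were thus above the reference and all 4 base arrays below it, a 13.6-fold decrease (difference -3.77 ± 0.32 SE, limma adjusted p = 5.63e-08). The expansin-like genes followed in size. EXLA2 (AT4G38400) went from 1.21 ± 0.27 (SD, n = 4) at the top to -1.06 ± 0.83 at the base (difference -2.27, adjusted p = 1.19e-05), with base replicate 2 lowest at -2.21. EXLA1 (AT3G45970) had 1.49, 1.66, 1.90 and 1.77 at the top and 0.23, -0.26, -0.30 and -0.42 at the base, a 3.71-fold decrease with little spread in either section (difference -1.89 ± 0.17 SE, adjusted p = 1.5e-07). The number of lower expansins was 5 to 7 without single arrays and 4 with the section in Cy5 only.

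Enzymes that cut and rejoin xyloglucan, the chains that tether cellulose microfibrils, did not move as one group. XTH33 (AT1G10550) was high on every top array (1.27, 1.49, 1.90 and 1.90) and below the reference on every base array (-0.46, -1.26, -1.50 and -0.50), a 5.94-fold decrease (adjusted p = 2.02e-07). XTH16 was instead higher at the base (0.83 ± 0.22 SE, limma adjusted p = 0.00962), a call lost in 4 smaller sets of arrays (adjusted p = 0.0558 to 0.139). EXGT-A3 was also called higher (0.72, adjusted p = 0.0366), a call lost without any one of top replicates 2, 3 or 4 or base replicates 1, 2 or 3 (0.49 to 0.76, adjusted p = 0.0523 to 0.163). The other 2 of 5 were not called. The 60.0% called compares with 21.5% of all loci, of which 11.7% were higher and 9.86% lower.

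Among the 10 family 9 glycosyl hydrolases, endoglucanases of the wall, 4 were lower (against 9.86% of all loci), none was higher and the median was -0.16. GH9B6 (AT1G23210) was 3.05-fold lower, from 0.48, -0.29, -0.20 and -0.29 at the top to a narrow -1.66, -1.79, -1.70 and -1.58 at the base (adjusted p = 2.57e-05). The count of lower genes was 2 without top replicate 1 and 2 without top replicate 2. GH9B8 (-1.23, adjusted p = 0.0292) and GH9B11 (-1.19, adjusted p = 0.0214) were the genes that lost their call in both cases (adjusted p = 0.0532 to 0.0907), and without base replicate 2 GH9B8 differed by -0.65 (adjusted p = 0.126). GH9B11 also lost its call without base replicates 3 or 4 (adjusted p = 0.0619 and 0.0855), and GH9B8 without base replicate 1 (adjusted p = 0.0653).

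Some Golgi enzymes for matrix polysaccharides were lower too. Of 5 cellulose synthase-like genes 3 were lower (against 9.86% of all loci) and none was higher, with a list median of -1.71, and the count of 3 held without each array in turn. CSLC04 (AT3G28180), which makes the glucan backbone of xyloglucan, had 1.69, 1.07, 0.40 and 0.23 at the top and -1.28, -1.51, -1.3 and -0.73 at the base. The top values were spread by dye. The groups did not overlap, as the rule for naming the leaders required, and the decrease was 4.16-fold (-2.06 ± 0.28 SE, limma adjusted p = 1.78e-05). Its relative ATCSLC08 (AT2G24630) was 3.69-fold lower, from 0.35 ± 0.26 (SD, n = 4) to -1.53 ± 0.37 (adjusted p = 6.96e-07). CSLA03 (AT1G23480), of the family that makes glucomannan backbones, went from 0.19 ± 0.07 to -1.52 ± 0.40 (3.27-fold lower, adjusted p = 7.5e-05).

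The TRICHOME BIREFRINGENCE-LIKE family, whose characterised members acetylate wall polysaccharides, gave 2 lower, 1 higher and 15 uncalled genes of 18, with a median of -0.07, and the 16.7% called was below the 21.5% of all loci. The pair of lower genes differed strongly. TBL45 (AT2G30010) had -0.05, 0.27, 0.10 and 0.25 at the top and -2.63, -2.44, -3.0 and -2.82 at the base, a 7.28-fold decrease (adjusted p = 5.14e-09), and TBL39 (AT2G42570) was 3.95-fold lower (-0.21 ± 0.28 against -2.19 ± 0.50, adjusted p = 3.43e-06). TBL37 was higher by 0.86 (adjusted p = 0.0051), with base values close together (1.95 ± 0.04) and top values spread (1.09 ± 0.55), since top replicate 1 reached 1.90. The called family members thus differed in opposite directions.

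Outside wall metabolism, the downward leaders were of mixed function. DRT100 (AT3G12610), a leucine-rich repeat protein named for DNA damage tolerance, had 0.76, 0.68, 0.40 and 0.69 at the top and -3.12, -3.08, -2.60 and -2.98 at the base. Both sections were tight, and the decrease was 11.9-fold (-3.58 ± 0.23 SE, adjusted p = 1.71e-09). LCR69 (AT2G02100), a defensin-like peptide, was 5.42-fold lower (-0.31 ± 0.25 against -2.75 ± 0.66, adjusted p = 1.13e-05). PRA1.F1 (AT1G17700), a prenylated RAB acceptor of vesicle traffic, was 4.05-fold lower, with top values spread from -0.70 to 0.93 (adjusted p = 0.000286).

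OPS (AT3G09070, OCTOPUS), a membrane protein that promotes phloem differentiation, had the largest decrease on the probe that stands for it. That probe had -0.53, -0.20, -0.50 and -0.28 at the top and -4.61, -3.07, -4.50 and -4.56 at the base, a 14.0-fold decrease (adjusted p = 5.14e-09). A second probe annotated to the same locus differed by -0.04 ± 0.24 SE (adjusted p = 0.938), so the locus has no single value here.

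A part of the chloroplast genes was lower at the base as well. Of 28 genes for light harvesting, photosystems, the Calvin cycle and chlorophyll synthesis, 12 were lower, 1 was higher and 15 were not called, with a median of -0.48, against 9.86% lower among all loci. The number of lower genes was 10 to 12 without single arrays and 4 with the section in Cy5 only. PORB (AT4G27440), which reduces protochlorophyllide in the light, had 0.38, 0.50, 0.20 and 0.42 at the top and -2.21, -0.03, -2.10 and -1.67 at the base. Base replicate 2 stood near the top values, and the decrease was 3.68-fold with it (-1.88, adjusted p = 0.000979) and -2.39 on the log2 scale without it. HEME1 (AT3G14930), uroporphyrinogen decarboxylase of the common branch to heme and chlorophyll, was 3.59-fold lower (-0.36 ± 0.32 against -2.20 ± 0.40, adjusted p = 9.7e-05). CaS (AT5G23060), a calcium-binding thylakoid protein, went from -0.25 ± 0.18 to -1.97 ± 0.22 (3.29-fold lower, adjusted p = 1.44e-06).

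Within that list, 10 genes belong to tetrapyrrole synthesis, and 4 of these were lower (40.0%, against 9.86% of all loci) and none higher, with a median of -0.83. The list median of the 10 lay between -0.57 and 0.15 on the top arrays and between -1.27 and -1.02 on the base arrays, so the sections did not overlap. HEMB1 (AT1G69740), which joins aminolevulinate molecules into porphobilinogen, was lower by -1.07 (adjusted p = 0.00419). The single higher gene of photosynthesis was PIFI (0.63, adjusted p = 0.0362), a chloroplast protein, and this call was lost without any one of 5 arrays (top replicates 1, 3 and 4 and base replicates 1 and 2; 0.55 to 0.60, adjusted p = 0.0714 to 0.107).

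Other plastid genes were among the leaders. LrgB (AT1G32080), a glycolate and glycerate transporter of the plastid envelope used in photorespiration, was 4.79-fold lower (adjusted p = 1.13e-05), with top values of -1.02, -0.26, 1.0 and 0.31 and base values of -2.55, -2.42, -1.60 and -2.45. Its top arrays with the section in Cy5 were the lower pair. Every base value was below them, as the rule for naming the leaders required. Cpn60beta2 (AT3G13470), a subunit of the chloroplast chaperonin that folds Rubisco and other proteins, was below the reference in both sections (-1.0 ± 0.25 at the top and -3.11 ± 0.40 at the base, 4.31-fold lower, adjusted p = 0.000941).

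**Figure D2:**
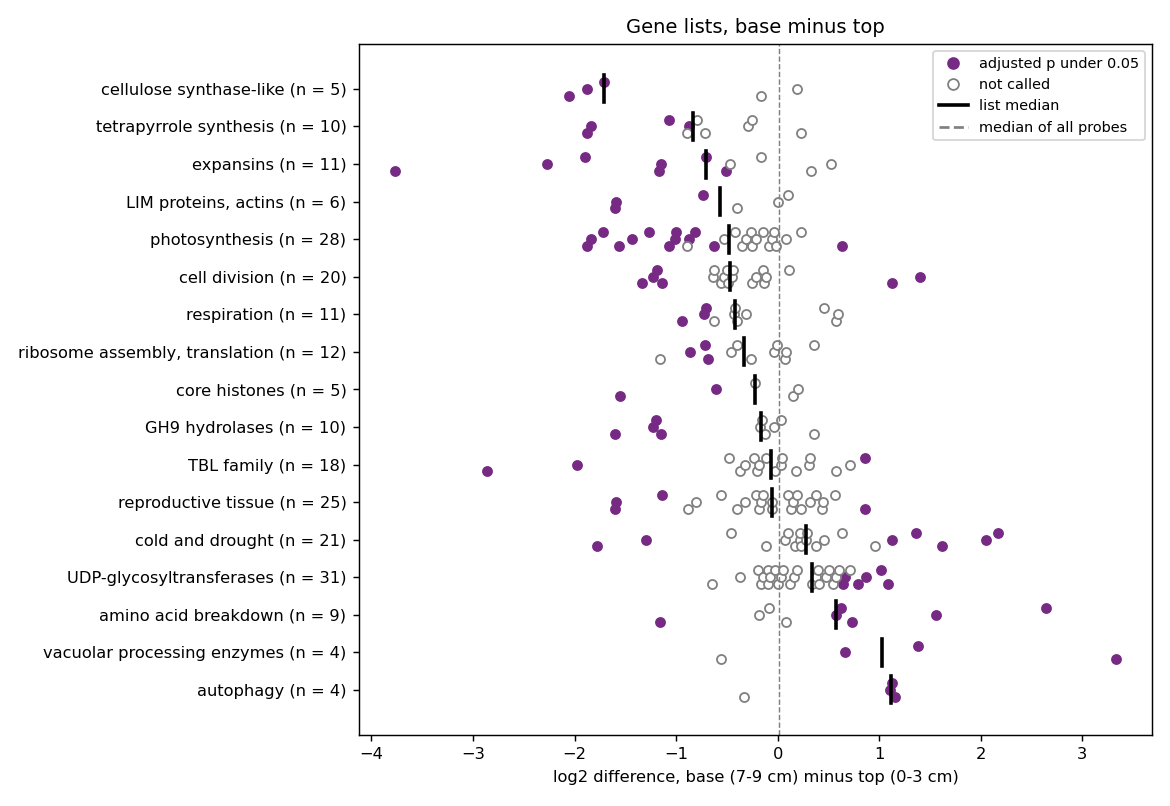
Log2 difference, base minus top, of each tested member of 17 gene lists (filled: adjusted p under 0.05), with the list median as a bar and the median of all probes as a dashed line. Cellulose synthase-like genes, tetrapyrrole synthesis and expansins have the lowest medians (-1.71, -0.83 and -0.71), and vacuolar processing enzymes and autophagy genes the highest (1.02 and 1.11).

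Cell division genes were called in both directions. Of 20 genes for mitosis, replication and the spindle, 4 were lower and 2 higher, 30.0% called against 21.5% of all loci, and the median was -0.47. The number of lower genes ran from 0 (with the section in Cy3 only, for example) to 10 over the alternatives tried. PRL (AT4G02060), a subunit of the MCM helicase that opens replication origins, was 2.52-fold lower (-0.52 ± 0.22 against -1.85 ± 0.46, adjusted p = 0.022). BUB3.1 (AT3G19590), a spindle checkpoint protein, was 2.35-fold lower (-0.59 ± 0.25 against -1.83 ± 0.66, adjusted p = 0.0127). Both calls were lost without base replicate 4 (-1.09, adjusted p = 0.0818 for PRL, and -0.93, adjusted p = 0.06 for BUB3.1), and that of PRL also without top replicate 4 (adjusted p = 0.0644). Without base replicate 4 the list held 2 lower genes. TUBG1, a gamma-tubulin that nucleates microtubules, was lower by -1.19 (adjusted p = 0.0102), and by -0.78 without top replicate 1.

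The exceptions were called more firmly. ATMAP65-6 (AT2G01910), which bundles microtubules, had 0.56, 0.90, 0.80 and 0.98 at the top and 2.51, 2.13, 2.30 and 1.92 at the base, a 2.65-fold increase (adjusted p = 0.000107). PSF2 (AT3G12530), a subunit of the GINS complex at replication forks, was 2.18-fold higher (0.38 ± 0.22 against 1.5 ± 0.20, adjusted p = 0.000307). The list of dividing-tissue genes was therefore not lower throughout.

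Of 5 core histones 2 were lower (40.0%, against 9.86% of all loci) and none was higher. HTB2 (AT5G22880), a histone H2B, was 2.94-fold lower (adjusted p = 8e-05), from 0.63, -0.21, -0.80 and -0.91 at the top to -2.10, -1.70, -2.10 and -1.62 at the base. HIS4, a histone H4, was lower by -0.60 (adjusted p = 0.0177), and its call was lost without top replicate 3 or 4 or base replicate 3 (adjusted p = 0.0513 to 0.0682). The linker histone HIS1-3 (AT2G18050), a variant induced by drought, went the opposite way. It had -0.25, 0.33, 0.50 and 0.74 at the top and 3.57, 3.1, 2.3 and 2.63 at the base, a 5.94-fold increase (adjusted p = 7.63e-06).

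Among 6 LIM proteins and actins, 3 were lower (against 9.86% of all loci) and none was higher. The largest decreases were those of ACT12 and ACT11 (-1.61 and -1.59, limma adjusted p = 0.000873 and 0.00148). These are actins best known from pollen and other growing tissues, and their probes may share signal. WLIM1, an actin-bundling LIM protein, was lower by -0.73 (adjusted p = 0.00228). Of 11 genes of glycolysis and the tricarboxylic acid cycle 3 were lower and none higher. The 27.3% lower compares with 9.86% lower among all loci, and with 21.5% called in either direction. The number of lower genes was 1 to 3 without single arrays. ENOC, a cytosolic enolase, was 1.92-fold lower (adjusted p = 0.00225), whereas the isocitrate dehydrogenase subunits IDH-IV and IDH-VI (adjusted p = 0.0403 and 0.0358) each lost their call without any one of 5 or 6 arrays (adjusted p = 0.0684 to 0.175 and 0.057 to 0.118).

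Upward, the largest difference was that of ECS1 (AT1G31580), a cell wall protein gene. Its ratios were -1.17, -0.29, -0.90 and -0.87 at the top and 3.21, 3.55, 3.2 and 3.06 at the base. Every top array was below the reference and every base array far above it, a 16.7-fold increase (4.06 ± 0.22 SE, adjusted p = 9.26e-11). NPF5.14 (AT1G72120), of the nitrate and peptide transporter family, was 9.65-fold higher, from -1.24, -0.86, 0.10 and -0.36 to 2.83, 2.26, 2.60 and 3.04 (adjusted p = 7.01e-08). GSTF3 (AT2G02930), a phi class glutathione S-transferase, was already above the reference at the top (1.47, 1.02, 0.80 and 1.44) and reached 5.06, 4.06, 4.00 and 4.76 at the base. It was 9.75-fold higher (adjusted p = 1.85e-07), while 8 of 11 glutathione S-transferases were not called. The 27.3% called was near the 21.5% of all loci. GSTU28 was higher (0.92, adjusted p = 0.0103) and GSTU18 lower (-0.85, adjusted p = 0.0109).

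Most of the few vacuolar protease and autophagy genes measured were higher. Vacuolar processing enzymes are cysteine proteases that mature vacuolar proteins and take part in plant cell death, and 3 of 4 were higher, with a median of 1.02, against 11.7% higher among all loci. GAMMA-VPE (AT4G32940), the form of vegetative tissue, had 0.31, 0.81, 0.60 and 0.55 at the top and 4.38, 2.32, 4.30 and 4.61 at the base. It was 10.1-fold higher (3.33 ± 0.33 SE, adjusted p = 3.97e-07), and the difference was 3.88 without base replicate 2, the array that stood apart. BETA-VPE (AT1G62710) was 2.61-fold higher (-0.12 ± 0.27 against 1.27 ± 0.42, adjusted p = 2.57e-05). ALPHA-VPE was higher by 0.66 (adjusted p = 0.0152), and by 0.57 without base replicate 2 (adjusted p = 0.0566).

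Of 4 autophagy genes 3 were higher (against 11.7% of all loci), and the remaining gene was not called. The 3 were all ATG8 genes, whose small proteins coat the autophagosome membrane. ATG8H (AT3G06420) had 0.62, 0.72, 0.20 and 0.70 at the top and 1.98, 1.70, 1.60 and 1.45 at the base (2.18-fold, adjusted p = 0.000489). ATG8E and ATG8D were 2.23-fold and 2.15-fold higher (adjusted p = 0.00142 and 0.0054). The differences were alike in size, and none of the 3 was called once the arrays were scaled to one spread (adjusted p = 0.0556 to 0.115).

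IVD and MCCA, both of leucine breakdown, had the largest increases among the amino acid breakdown genes. IVD (AT3G45300), isovaleryl-CoA dehydrogenase of the mitochondrion, had 0.28, 0.16, -0.10 and 0.54 at the top and 3.01, 3.17, 2.70 and 2.57 at the base, a 6.25-fold increase (adjusted p = 2e-07). The next enzyme of the pathway is methylcrotonyl-CoA carboxylase. Its subunit MCCA (AT1G03090) was 2.94-fold higher, with narrow groups (-0.12 ± 0.22 against 1.44 ± 0.17, adjusted p = 3.97e-06). The other subunit, MCCB, was higher by 0.73 (adjusted p = 0.0383), a call lost without top replicates 1 or 4 or any one base replicate (0.49 to 0.76, adjusted p = 0.0573 to 0.149).

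In the whole list of 9 amino acid breakdown genes, 5 were higher (against 11.7% of all loci) and 1 lower, and 3 were higher without top replicate 1 or 4 or base replicate 1, 3 or 4 (4 without each of the others). The lowest number over the alternatives was 2. The lower one was MGL (AT1G64660), which splits methionine, at 0.96 ± 0.28 and -0.19 ± 0.27 (2.23-fold lower, adjusted p = 6.54e-05). APL3 (AT4G39210), a large subunit of the ADP-glucose pyrophosphorylase of starch synthesis, was 3.33-fold higher, with base replicate 4 lowest at 1.19 (adjusted p = 0.000232). The sugar transporters SWEET2 (1.15, adjusted p = 0.0115) and SWEET1 (0.77, adjusted p = 0.0275) were the 2 higher of 7 (28.6%, against 11.7% of all loci). SWEET2 lost its call without top replicate 3 (adjusted p = 0.0528) and SWEET1 without top replicates 1, 3 or 4 or base replicates 1 or 2 (adjusted p = 0.0591 to 0.104).

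Of 21 dehydrins and other cold and drought genes, 5 were higher, 2 were lower and the median was 0.28. The 33.3% called compares with 21.5% of all loci, of which 11.7% were higher and 9.86% lower. Without base replicate 2 the higher genes numbered 8. LTI30 (AT3G50970), a dehydrin, had 0.66, 0.80, 0.60 and 0.91 at the top and 3.17, 3.05, 2.30 and 3.11 at the base (4.48-fold higher, adjusted p = 7.01e-08). DREB2C (AT2G40340), a transcription factor that binds the dehydration-responsive element, was 4.15-fold higher (-0.36 ± 0.41 against 1.70 ± 0.66, adjusted p = 4.5e-05), and STZ (AT1G27730), a zinc finger repressor of stress responses, 3.08-fold (0.26 ± 0.66 against 1.88 ± 0.97, adjusted p = 0.0037). The called genes did not share a direction, though the share of lower ones was near that of all loci. DI21 (AT4G15910), named for its induction by drought, was 3.44-fold lower (-0.85 ± 0.21 against -2.63 ± 0.31, adjusted p = 4.84e-05), and LEA26 (AT2G44060) 2.45-fold lower (adjusted p = 0.000161).

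Genes listed as defence-related were split as well, with 3 higher and 5 lower of 17, 47.1% called against 21.5% of all loci. The count includes ECS1 and DRT100, which are described above by other functions. Besides ECS1, DRT100 and LCR69, the thaumatin-like ATLP-1 (AT1G18250) was 3.30-fold lower (adjusted p = 0.000174) and the defensin LCR67 (AT1G75830) 2.15-fold higher (adjusted p = 0.000727). A second LCR67 probe differed by 0.50 (adjusted p = 0.145). The thionin THI2.2 was higher by 0.65 (adjusted p = 0.0259), a call lost without any one of top replicates 2 and 4 or base replicates 1, 3 and 4 (adjusted p = 0.0548 to 0.0929). Without top replicate 1 or 4 or base replicate 1, 2 or 4 the list held 3 lower genes.

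Enzymes that modify small molecules were called in part. Of 31 UDP-glycosyltransferases, which attach sugars to hormones and secondary metabolites, 6 were higher and none was lower, with a median of 0.33. The 19.4% higher compares with 11.7% higher among all loci, and with 21.5% called in either direction. The number of higher genes was 5 to 7 without single arrays and 1 with the section in Cy3 only. The largest were UGT73B5 (1.09 ± 0.29 SE, adjusted p = 0.00942), UGT71C1 (1.02 ± 0.23, adjusted p = 0.00327) and GT72B1 (0.87 ± 0.23, adjusted p = 0.00837). FMO (AT1G12200), a flavin monooxygenase, was 5.21-fold higher, with -0.46, 0.18, 0.20 and -0.01 at the top and 2.32, 1.79, 2.2 and 3.12 at the base (adjusted p = 1.19e-06). Among 13 cytochromes P450, 3 were higher and 1 lower, 30.8% called against 21.5% of all loci. CYP71B6 (AT2G24180) was 2.48-fold higher (-0.20 ± 0.10 against 1.11 ± 0.19, adjusted p = 4.23e-05) and CYP78A9 (AT3G61880), of a family that promotes organ growth, 2.86-fold (adjusted p = 0.00914). CYP79C2 was lower by -0.76 (adjusted p = 0.0134), and by -0.55 without base replicate 1 (adjusted p = 0.0695).

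Named genes around lignin precursors went both ways. CCR2 (AT1G80820), a cinnamoyl-CoA reductase, was 3.87-fold lower, from -0.85, -0.42, -0.10 and -0.48 to -2.76, -1.93, -2.5 and -2.46 (adjusted p = 7.61e-06). CCOAMT (AT1G67980), annotated as a caffeoyl-CoA methyltransferase, had 0.80, 0.24, -0.20 and -0.64 at the top and 1.71, 4.67, 0.80 and 0.72 at the base, with base replicate 2 far above the rest and the groups overlapping. It was higher by 1.93 with that array (adjusted p = 0.00741) and by 1.15 without it (adjusted p = 0.016). BGLU45 (AT1G61810), which releases monolignols from their glucosides, had its highest base value on the same array (5.25, against 1.74 to 3.34 on the others). It was higher by 1.54 (adjusted p = 0.0241), by 0.86 without base replicate 2 (adjusted p = 0.104), and its call was also lost without top replicate 1 or 3 or base replicate 1 (adjusted p = 0.0527 to 0.0824).

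Wall polymer remodelling beyond these lists was thinly covered. ATPMEPCRD (AT2G43050), a pectin methylesterase, was 2.15-fold higher (adjusted p = 0.0141), with a call lost without top replicate 1 (0.83, adjusted p = 0.0652) or base replicate 4 (0.96, adjusted p = 0.0515). The pectin methylesterase PMEPCRF (0.07 ± 0.26 SE, adjusted p = 0.886) and the polygalacturonase ADPG1 (0.17 ± 0.31, adjusted p = 0.757) were not called. FER (AT3G51550, FERONIA), a receptor kinase that senses the wall, was 2.72-fold higher (0.48 ± 0.63 against 1.92 ± 0.23, adjusted p = 0.000778). Of 5 class III peroxidases 1 was lower, 1 was higher and 3 were not called, 40.0% called against 21.5% of all loci. The lower one, PRX71 (AT5G64120), was 2.05-fold lower (adjusted p = 0.00385). The higher one, AT2G41480, lost its call without any one of the top replicates or base replicates 1 or 2 (0.51 to 0.85, adjusted p = 0.0547 to 0.203).

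Hormone and transcription genes gave scattered calls. Of 14 auxin genes 3 were higher and 1 lower, 28.6% called, near the 21.5% of all loci. LBD16 (AT2G42430), a LATERAL ORGAN BOUNDARIES regulator downstream of auxin, was 2.32-fold higher (0.10 ± 0.36 against 1.31 ± 0.41, adjusted p = 0.000965), and GH3.1, of the family that conjugates auxin to amino acids, 1.83-fold (adjusted p = 0.00952). GH3.17 was lower by -0.69 (adjusted p = 0.026), a call lost without top replicates 1 or 2 or base replicates 2 or 4 (adjusted p = 0.0671 to 0.0746), and a second probe of its locus differed by -0.15 (adjusted p = 0.74). GID1A, a gibberellin receptor, was higher by 0.89 (adjusted p = 0.00544), the 1 call among 6 gibberellin and brassinosteroid genes (16.7%, against 11.7% higher among all loci). YAB3 (AT4G00180), a YABBY regulator of lateral organ polarity, was 2.41-fold lower (adjusted p = 0.000156). Its top values ran from -0.56 to 1.0 and its base values from -1.57 to -0.71, so that the sections stayed apart by little. TCP15 (AT1G69690), a regulator of cell proliferation, was 2.92-fold higher on the probe that stands for it (adjusted p = 9.56e-06), and a second probe of the locus differed by 0.05 (adjusted p = 0.899).

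A pair of regulators was among the upward leaders. bZIP18 (AT2G40620), a leucine zipper factor, had 0.51, 0.65, 0.50 and 0.42 at the top and 2.64, 1.85, 2.3 and 2.86 at the base (3.72-fold higher, adjusted p = 1.14e-05). ATL5 (AT3G62690), of a family of RING-H2 ubiquitin ligases, was 4.36-fold higher (adjusted p = 0.00139). Its base values were 1.25, 0.89, 3.60 and 2.80, far more spread than the top values of -0.20 to 0.20.

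Markers of other tissues were few. The single named floral marker, AMS, an anther transcription factor, differed by 0.37 ± 0.20 SE (adjusted p = 0.199). Of 25 genes of reproductive tissue 1 was higher and 3 lower, with a median of -0.05, and the 16.0% called lay below the 21.5% of all loci. The single named secondary wall gene, GUT2, a xylan synthesis enzyme, differed by 0.45 ± 0.33 SE (adjusted p = 0.377), so the presence of mature fibres at the base could not be checked from named probes. Of the vascular genes, LHW, which sets vascular cell number in roots, was lower by -0.62 (adjusted p = 0.0461), a call lost without any one of 6 arrays (-0.40 to -0.68, adjusted p = 0.0566 to 0.172), and CLE26 was not called (-0.20 ± 0.20, adjusted p = 0.539). Cuticle genes of the epidermis, cytosolic ribosomal proteins and the NAC and MYB regulators of the secondary wall had no named probe and were not analysed here. The tubulins TUA1 (-0.71 ± 0.41 SE, adjusted p = 0.244) and TUB7 (0.07 ± 0.53, adjusted p = 0.948) and the proton pump subunits VHA-A1, VHA-A2 and AVA-P2 (-0.22, -0.24 and -0.21, adjusted p = 0.4 to 0.612) were not called.

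**Figure D3:**
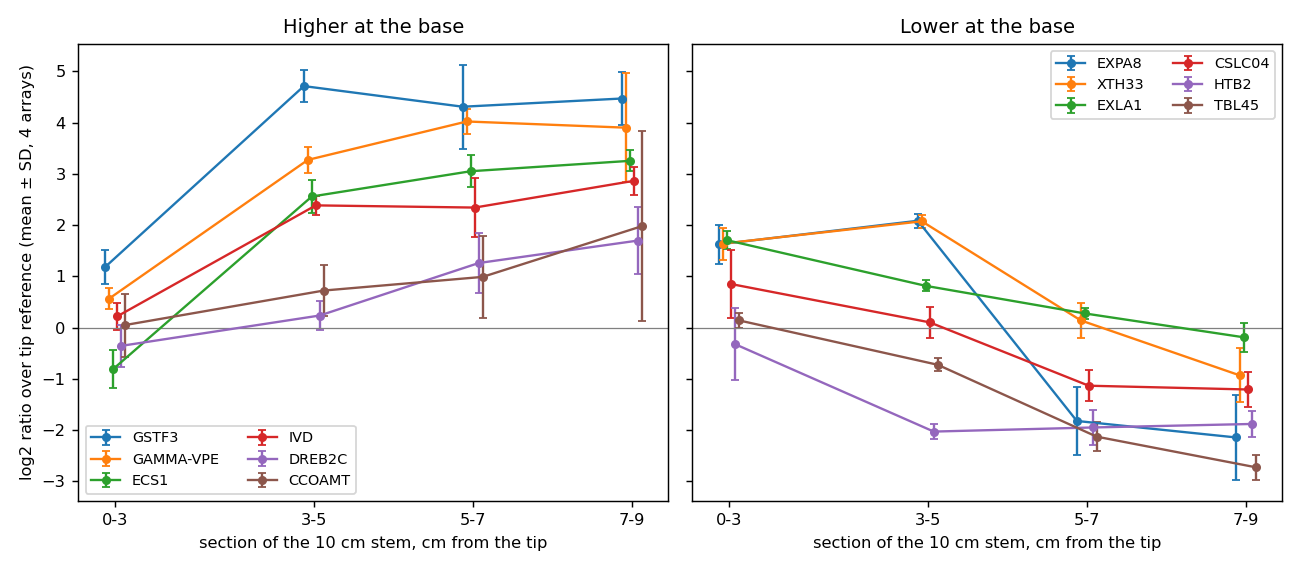
Mean log2 ratio over the tip reference with SD (4 arrays per section) along the 10 cm stem for 6 genes higher and 6 genes lower at the base. GSTF3, GAMMA-VPE, ECS1 and IVD are high from 3-5 cm on, EXPA8 and XTH33 are as high at 3-5 cm as at the top and low from 5-7 cm, and HTB2 is low from 3-5 cm.

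The sections between top and base showed where along the stem the difference arose. Among probes called and at least 2-fold different, the 1308 higher ones had covered a median of 66.7% of the base minus top difference by 3-5 cm and 84.9% by 5-7 cm. The 1383 lower ones had covered 56.2% and 87.4%. Under 25% of the difference was covered at 3-5 cm by 158 higher probes (12.1%) and 319 lower ones (23.1%). These shares are descriptive, since the probes were chosen on the top and base values that also scale them. The 3-5 cm arrays were all scanned at a Cy5 photomultiplier setting of 61, against 60 for the other sections of these stems. Scan setting and section cannot be told apart there.

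Late decreases included the wall-loosening leaders. EXPA8 averaged 1.63 at 0-3 cm, 2.08 at 3-5 cm, -1.82 at 5-7 cm and -2.14 at 7-9 cm, and XTH33 averaged 1.64, 2.07, 0.14 and -0.93. Both genes were thus at tip level or above through 3-5 cm. EXLA2 had instead lost most of its level by 3-5 cm (1.21, -0.31, -0.36 and -1.06), and so had HTB2 (-0.32, -2.03, -1.95 and -1.88) and DI21 (-0.85, -2.76, -2.68 and -2.63). Upward, GSTF3 (1.18, 4.71, 4.31 and 4.47) and IVD (0.22, 2.38, 2.34 and 2.86) were near their base level at 3-5 cm, while DREB2C (-0.36, 0.24, 1.26 and 1.70) and bZIP18 (0.52, 1.57, 2.61 and 2.41) were not.

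Few differences were called between the lowest section and the one above it. Between 7-9 cm and 5-7 cm, 1 of 25720 probes was called (0.00389%), with 1211 (4.71%) at an unadjusted p under 0.05. The called spot carries no gene name. It had 0.70, 1.0, 0.71 and 0.74 at 5-7 cm and -1.27, -1.16, -0.90 and -1.18 at 7-9 cm (-1.92 ± 0.27 SE, limma adjusted p = 0.0143). The call did not hold without base replicate 1 or 2 or without 5-7 cm replicates 2, 3 or 4, where no probe was called, and 0 to 3 probes were called over all such omissions. XTH33 differed by -1.07 ± 0.24 SE (unadjusted p = 0.000253, limma adjusted p = 0.352) and was not called, and a p that misses the threshold does not show that the sections were the same.

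In short stems the ratio of the 2-4 cm section to the tip reference is itself a lower minus upper difference, and the model tested whether it differed from the base minus top difference of long stems. The sections lie farther apart in the long stems, stem age differs, and the contrast shares the top and base arrays with the main comparison. All short stem arrays were scanned at a Cy5 photomultiplier setting of 59, which no top or base array had (60). Scan setting and stem length thus cannot be told apart in this contrast. On 2664 probes (10.4%) the differences were unequal, 1202 of them (4.67%) more positive and 1462 (5.68%) more negative in long stems. At least 2-fold inequality was called on 7.17% of probes, and 23.5% had an unadjusted p under 0.05. The count was 2077 to 2736 when single arrays were left out.

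**Figure D4:**
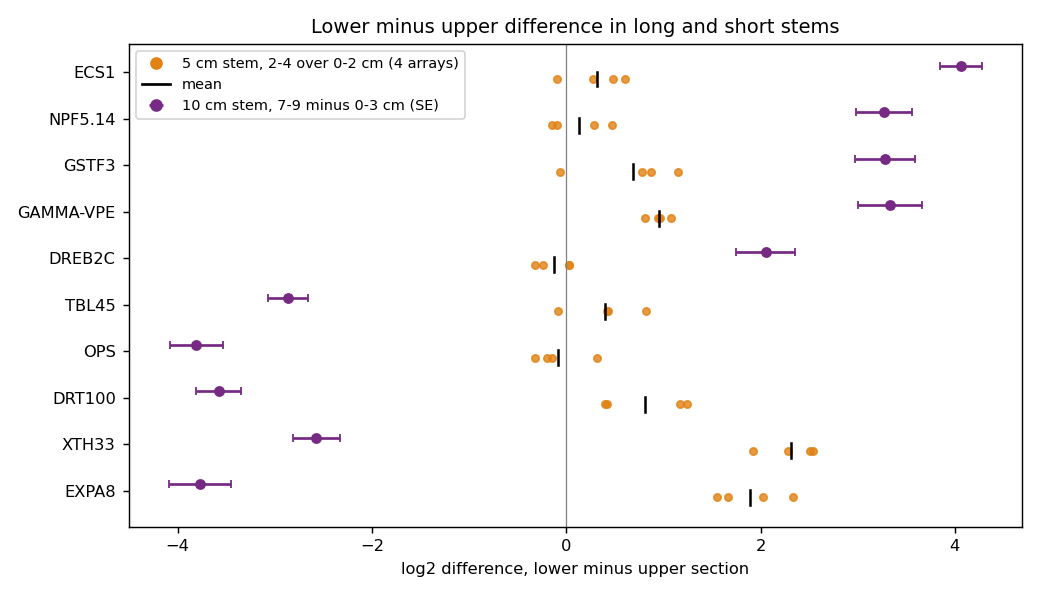
Log2 difference, lower minus upper section, in 10 cm stems (7-9 minus 0-3 cm, with SE) and on each of 4 arrays of 5 cm stems (2-4 over 0-2 cm, with the mean), for the 5 named genes with the largest positive and the 5 with the largest negative long minus short difference. EXPA8 and XTH33 lie at -3.77 and -2.57 in long stems and at 1.89 and 2.31 in short stems. At 3-5 cm of long stems, not drawn, their ratios over the tip reference averaged 2.08 and 2.07.

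EXPA8 and XTH33 showed opposite signs in the 2 differences, whose lower sections lie at unlike distances from the tip. At 3-5 cm of long stems their ratios over the same reference averaged 2.08 and 2.07. At 2-4 cm of short stems the averages were 1.89 and 2.31. In short stems the lower section was above the tip on all 4 arrays for EXPA8 (2.33, 2.03, 1.55 and 1.66) and for XTH33 (2.28, 1.92, 2.54 and 2.51). The long minus short difference was -5.66 ± 0.39 SE for EXPA8 (limma adjusted p = 6.56e-09) and -4.89 for XTH33 (adjusted p = 1.08e-09). DRT100 also had a positive short stem ratio on each array (1.17, 1.25, 0.40 and 0.42), with a difference of -4.39 (adjusted p = 2.32e-09). Of the 11 expansins, 6 had a more negative difference in long stems and none a more positive one, against 5.25% and 4.42% of all 7871 loci, 9.67% together.

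The other genes among the 5 largest contrasts in each direction had short stem means between -0.12 and 0.95. ECS1 averaged 0.32 ± 0.31 (SD, n = 4) at 2-4 cm of short stems, and the long minus short difference was 3.74 (adjusted p = 6.56e-09). NPF5.14 averaged 0.13 ± 0.30 (difference 3.14, adjusted p = 3.58e-06), DREB2C -0.12 ± 0.18 (2.18, adjusted p = 0.000494) and TBL45 0.40 ± 0.37 (-3.26, adjusted p = 1.93e-08). GSTF3 and GAMMA-VPE were already somewhat above the tip (0.68 ± 0.52 and 0.95 ± 0.11), with differences of 2.60 (adjusted p = 9.26e-05) and 2.38 (adjusted p = 0.000503). FMO was the exception among the upward leaders: its short stem ratio of 2.01 ± 0.26 was near its long stem difference of 2.38, and the difference of 0.37 between them was not called (adjusted p = 0.536). DI21 was likewise lower in both (-1.67 ± 0.46 in short stems and -1.78 in long ones, difference -0.11, adjusted p = 0.888).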

How the data were processed

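RNA of stem sections was hybridised to 2-colour spotted arrays. The authors deposited 1 normalised log2 ratio of section over reference per spot and array. No source used here gives the log base, background correction or normalization, and base 2 was taken. Top replicate 3 and base replicate 3 were deposited in steps of 0.1. Spots measured on at least 3 of 4 arrays of each section were fitted with limma 3.58.1 in R 4.3.3: a mean for each of 5 sections and a dye term over all 20 arrays (14 residual degrees of freedom), moderated variances, two-sided tests and Benjamini-Hochberg adjustment over 25720 spots at 0.05. The probe with most measurements stood for a locus, ties going to the first in the file. Genes were named by rule: the 12 largest called, non-overlapping differences per direction, up to 3 called members per list and direction, all members of lists of 3 or fewer, and 5 per direction for the other contrasts. Comparison, members and lists were chosen with earlier results of these data known, so lists carry counts and medians only. The spot filter, dye term, photomultiplier setting, scaling, single arrays and array subsets were varied. The fit was tested on simulated data. Promoter motifs were not analysed here.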

Additional observations from a re-analysis of the deposited data

Results flagged for a closer look

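Among the named genes, 246 groups of 4 arrays were checked for a single value far from the other 3, and 13 were found (5.28%), where chance gives about 1 in 20. At the base, the highest value stood apart for OPS (-3.07, next -4.50), LrgB (-1.60, next -2.42) and AGL56 (0.80, next 0.48). The lowest base value stood apart for GAMMA-VPE (2.32, next 4.30), LTI30 (2.30, next 3.05), APL3 (1.19, next 2.28), BGLU33 (0.98, next 1.67), PSF2 (1.2, next 1.6) and EC1.2 (-2.10, next -0.52). At the top, the highest value stood apart for GH9B6 (0.48, next -0.20), LEA26 (AT2G44060; 0.41, next 0.20) and AT1G54010 (0.42, next -0.03), and the lowest for BUB3.1 (-0.96, next -0.50).

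The lower minus upper difference differed between long and short stems on 2664 probes by the test of the difference itself. Among named genes the long minus short difference was most negative for EXPA8 (-5.66), XTH33 (-4.89), DRT100 (-4.39), OPS (-3.72) and TBL45 (-3.26), and most positive for ECS1 (3.74), NPF5.14 (AT1G72120; 3.14), GSTF3 (2.60), GAMMA-VPE (2.38) and DREB2C (2.18).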

How the results depend on the processing

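Against 5600 probes called between base and top, 3244 were called within the photomultiplier setting of the top arrays, 3521 with the section in Cy5 only, 2870 with it in Cy3 only, 2821 after centring and scaling the arrays to one spread, 3438 without the arrays whose dye labels disagree, and 2691 when a 2-fold difference was required as well. These subsets use fewer arrays, apart from the scaling and the fold, and for the scaling the cause was not tested. Between 41.9% and 98.8% of the calls were kept in the same direction. Deviations of same-numbered top and base arrays correlated at -0.14 to 0.16, and those of differently numbered ones at -0.21 to 0.23. The values show no pairing by number but cannot exclude it, since section and dye means had been removed. A replicate block gave 5462 probes for base against top, 1 for 7-9 against 5-7 cm and 1764 in place of 2664 for long against short stems. For 7-9 against 5-7 cm, 0 probes were called after scaling and 0 to 3 without single arrays. Of 113 called named genes, 40 were called under all 23 alternatives, 73 lost the call under at least 1 and none turned its sign. Of 36 list medians 12 changed sign under at least 1 alternative, the largest being 0.29 in size. TUA1 was called (adjusted p = 0.0438) when only the 8 arrays were fitted.

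Signs turned only among named genes that were not called. VHA-A1 gave 0.20 with Cy3 only and 0.029 without the dye-label arrays, and CLE26 gave 0.17 with Cy5 only. TUB7 gave -0.22 with Cy5 only, -0.012 without the arrays in steps of 0.1 and -0.055 to 0.19 without single arrays. PMEPCRF gave -0.11 with the photomultiplier setting as a block, -0.10 within one setting, -0.27 with Cy5 only, -0.076 after scaling, -0.14 without the arrays in steps of 0.1 and -0.060 to 0.20 without single arrays. ADPG1 gave -0.083 with array weights, -0.14 without top replicates 1 and 3, -0.074 without the arrays in steps of 0.1 and -0.025 to 0.49 without single arrays.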
